A study of Arabidopsis thaliana with 6 samples.

Results

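The TAIR10.1 annotation of Arabidopsis thaliana holds 3480 nuclear loci of the biotype lncRNA among 37899 nuclear genes, and all 3480 were taken as members. They were split by position alone: 2059 loci shared no base with the span of a protein-coding gene (non-overlapping loci) and 1421 shared at least 1 base (overlapping loci). The loci were short, with a median span of 314 bp for non-overlapping and 397 bp for overlapping loci, against 2078 bp for protein-coding genes. Of the overlapping loci, 1347 lay on the strand opposite to the protein-coding gene they shared most bases with, 74 lay on the same strand, and 927 lay wholly inside protein-coding spans. Of the non-overlapping loci, 625 overlapped an annotated gene of another kind or another lncRNA locus, and 487 overlapped another lncRNA locus.

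H3K27me3, trimethylation of lysine 27 of histone H3, is deposited by Polycomb repressive complex 2 (PRC2) and marks genes held in a repressed state. BRAHMA (BRM) hydrolyses ATP to move nucleosomes within SWI/SNF remodellers, which are known to work against Polycomb repression. Long non-coding RNAs of plants include transcripts from between genes and natural antisense transcripts, and antisense transcription across the floral repressor gene FLC is known to accompany its silencing by PRC2 in the cold.

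H3K27me3 was measured by chromatin immunoprecipitation and sequencing (ChIP-seq) in whole 14-day-old seedlings of wild-type Col (wt) and of brm, which carries the null T-DNA allele brm-1. Each genotype had 2 H3K27me3 libraries from independent biological samples and 1 input library without a replicate. The seedlings were not sorted, so fewer cells with the mark and less of the mark per cell cannot be told apart. The H3K27me3 libraries held 8408612 to 9593473 mapped nuclear reads, but only 2115598 to 3213347 of these had a position and strand of their own. The share of such distinct reads was 27.9% and 23.4% in wt and 28.3% and 38.2% in brm, and 68.9% and 80% in the wt and brm inputs. ChIP-seq reads carry no strand of transcription, so a lncRNA locus and the gene it overlaps shared the reads of their common bases, and no transcript level was measured.

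The sequences that follow are those of the 1 locus called in the comparison of brm with wt (AT3G06755), of loci in the 4 called regions without a protein-coding gene, of the FLC antisense locus (AT5G01675), of the 1 listed lncRNA of this biotype (AT1G69572) and of the uncalled locus with the largest fitted increase (AT3G05265). For 6 loci the promoter window is shown, from 250 bases before to 50 bases after the first base of the locus, and for 2 short loci the whole span. The capitals mark the letters GAGAGA, a motif bound by BASIC PENTACYSTEINE proteins, or AAACCCTA, the telobox, both linked to PRC2 recruitment in Arabidopsis, in either orientation. Windows and spans were read 5′ to 3′ on the strand of the locus from the TAIR10.1 genome.
AT2G05425 (window chr2:3528575-3528874, - strand): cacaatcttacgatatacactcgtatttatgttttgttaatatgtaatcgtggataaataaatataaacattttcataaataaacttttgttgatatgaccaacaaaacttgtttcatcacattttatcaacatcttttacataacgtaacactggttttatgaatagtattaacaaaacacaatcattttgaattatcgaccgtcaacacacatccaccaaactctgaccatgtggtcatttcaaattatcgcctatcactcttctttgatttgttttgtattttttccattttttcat
AT2G08245 (window chr2:12027025-12027324, + strand): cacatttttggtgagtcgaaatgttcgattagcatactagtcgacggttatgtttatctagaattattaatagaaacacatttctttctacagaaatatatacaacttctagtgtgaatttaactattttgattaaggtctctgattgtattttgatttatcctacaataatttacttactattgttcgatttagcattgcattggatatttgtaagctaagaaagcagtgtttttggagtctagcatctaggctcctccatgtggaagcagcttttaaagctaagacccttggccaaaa
AT2G09450 (window chr2:18005652-18005951, + strand): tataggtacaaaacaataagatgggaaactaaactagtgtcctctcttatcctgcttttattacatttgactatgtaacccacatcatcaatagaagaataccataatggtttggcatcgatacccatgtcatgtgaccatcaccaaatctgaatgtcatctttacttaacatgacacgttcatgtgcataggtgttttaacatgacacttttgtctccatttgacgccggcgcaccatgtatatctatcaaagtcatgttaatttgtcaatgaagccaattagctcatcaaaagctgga
AT5G04355 (window chr5:9518097-9518396, + strand): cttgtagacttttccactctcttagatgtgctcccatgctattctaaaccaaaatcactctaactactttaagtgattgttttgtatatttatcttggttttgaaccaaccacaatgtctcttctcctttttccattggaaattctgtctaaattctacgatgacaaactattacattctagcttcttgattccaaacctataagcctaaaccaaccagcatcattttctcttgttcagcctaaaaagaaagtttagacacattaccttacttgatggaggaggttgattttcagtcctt
AT5G01675 (window chr5:3173121-3173420, + strand): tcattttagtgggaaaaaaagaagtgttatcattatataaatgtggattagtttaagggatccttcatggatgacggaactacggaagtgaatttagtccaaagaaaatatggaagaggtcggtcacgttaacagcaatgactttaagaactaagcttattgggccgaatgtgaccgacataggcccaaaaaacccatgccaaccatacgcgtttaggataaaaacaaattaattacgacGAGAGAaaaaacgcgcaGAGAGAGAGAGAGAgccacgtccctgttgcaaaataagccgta
AT1G69572 (window chr1:26161301-26161600, + strand): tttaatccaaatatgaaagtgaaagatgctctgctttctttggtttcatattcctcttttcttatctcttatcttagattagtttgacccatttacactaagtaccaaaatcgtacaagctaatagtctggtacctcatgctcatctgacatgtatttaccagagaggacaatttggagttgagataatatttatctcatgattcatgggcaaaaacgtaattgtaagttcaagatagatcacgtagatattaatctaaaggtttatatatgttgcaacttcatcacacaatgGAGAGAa
AT3G06755 (span chr3:15971855-15972088, - strand): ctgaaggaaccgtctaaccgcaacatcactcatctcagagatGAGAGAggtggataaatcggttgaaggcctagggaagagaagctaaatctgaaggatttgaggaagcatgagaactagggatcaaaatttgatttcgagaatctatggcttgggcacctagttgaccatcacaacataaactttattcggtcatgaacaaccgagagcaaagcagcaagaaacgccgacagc
AT3G05265 (span chr3:10187733-10187965, - strand): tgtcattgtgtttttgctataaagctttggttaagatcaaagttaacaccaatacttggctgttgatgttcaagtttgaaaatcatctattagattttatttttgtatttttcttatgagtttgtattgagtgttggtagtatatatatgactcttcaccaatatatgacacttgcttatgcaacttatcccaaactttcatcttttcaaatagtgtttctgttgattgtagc

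GAGAGA occurred 6 times in the window of AT5G01675, the antisense locus of FLC, with 5 of the matches overlapping in a run that began 7 bases past the first base of the locus. A single GAGAGA was found in the window of AT1G69572 and in the span of AT3G06755, and none of the other shown sequences held it. No telobox was found in the shown sequences. GAGAGA or its reverse complement TCTCTC was present in 28.5% of the 37897 promoter windows of this length that could be read, in 23.8% of those of non-overlapping loci and in 29.4% of those of overlapping loci. The telobox or its reverse complement TAGGGTTT was present in 6.17% of all windows, 4.66% of those of non-overlapping and 3.94% of those of overlapping loci. Among non-overlapping loci the telobox was in 5.75% of the 661 windows of loci marked in wt and in 4.15% of the 1397 others. These shares describe letters in a window, with no test.

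The first comparison set the H3K27me3 level of each locus against the input of its genotype. Non-overlapping lncRNA loci carried H3K27me3 far more often than overlapping ones. A locus was called marked where H3K27me3 regions found in both replicates of a genotype covered at least 50% of its span, and in wt this held for 661 of 2059 non-overlapping loci (32.1%) and for 132 of 1421 overlapping loci (9.29%). Among protein-coding genes 21.9% were marked in wt, and among all annotated genes 19.9%. The median log2 ratio to input, as the mean of the replicates, was -0.73 in wt and -0.59 in brm over 1535 non-overlapping loci with at least 10 reads in each input, and -2.24 and -2.25 over 1230 overlapping loci. Levels were in reads per 1000000 mapped nuclear reads of the library (RPM), with 0.5 RPM added before the ratio. Each replicate alone gave medians of -0.60 and -0.63 in wt and -0.51 and -0.53 in brm for non-overlapping loci, so the spread between replicates was far smaller than the difference between the classes. A mean ratio above 2-fold over input was reached in wt by 421 of the 1535 non-overlapping loci (27.4%) and 87 of the 1230 overlapping loci (7.07%).

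**Figure D1:**
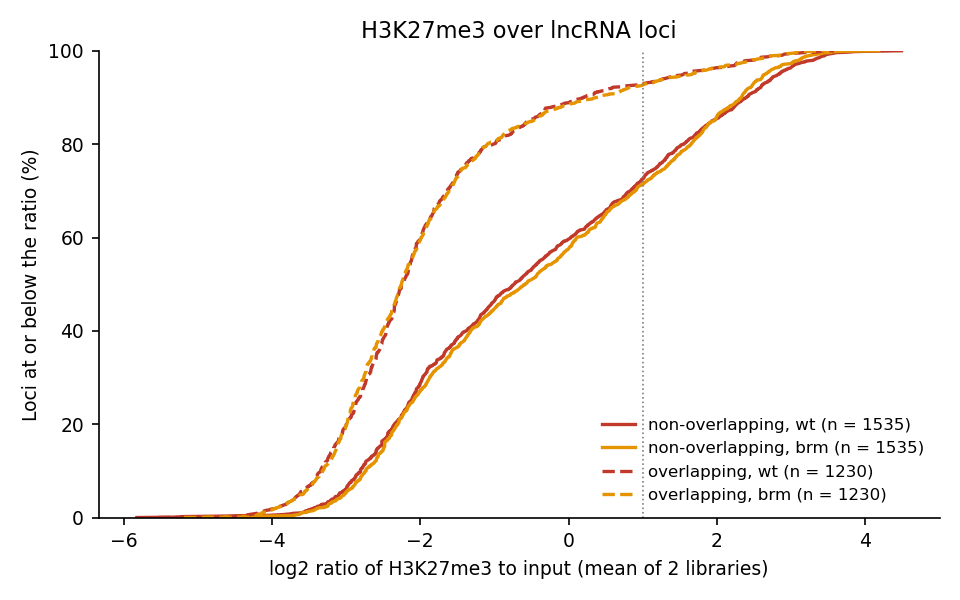
Cumulative share of lncRNA loci (y axis, %) at or below a log2 ratio of H3K27me3 to input (x axis, mean of 2 libraries) for non-overlapping (solid) and overlapping (dashed) loci in wt (red) and brm (orange), with a dotted line at 2-fold enrichment. The curves separate the 2 position classes, with medians of -0.73 and -2.24 in wt for the mean of the replicates, and the genotypes lie close together within each class.

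The share of all reads was also higher than in the input for one class and lower for the other. Non-overlapping loci took 1.25% and 1.21% of the H3K27me3 reads in wt and 1.25% and 1.23% in brm, against 0.789% and 0.802% in the wt and brm inputs. Overlapping loci took 0.622% and 0.645% in wt and 0.628% and 0.626% in brm, below their 1.08% and 1.12% in the inputs. Neither share separated the genotypes, with an exact two-sided permutation test of 2 against 2 libraries giving p = 1 for both classes, in a design whose smallest possible p is 0.333.

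The difference between the position classes was present at every length below 1000 bp. In wt, 34.9% of the non-overlapping loci from 200 to below 300 bp were marked against 10.8% of the overlapping loci of that length and 23% of protein-coding genes. From 300 to below 500 bp the shares were 30%, 8.06% and 28.8%, and from 500 to below 1000 bp they were 30.8%, 9.12% and 39%. Only 27 non-overlapping loci were 1000 bp or longer, and 14.8% of them were marked, against 8.93% of 291 overlapping loci. By chromosome, 28.1% (chromosome 2) to 34.2% (chromosome 4) of the non-overlapping loci were marked in wt.

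Whether a locus was marked went with the state of its protein-coding partner. Of the overlapping loci whose partner was marked in wt, 107 of 139 (77%) were marked themselves, whereas 25 of 1282 (1.95%) were marked where the partner was not. The 74 loci on the same strand as their partner were marked in 35.1% of cases in wt, and the 1347 antisense loci in 7.87%. The partner itself was marked for 27 of the 74 and for 112 of the 1347. Where the partner was marked, 70.4% of the same-strand and 78.6% of the antisense loci were marked. For non-overlapping loci the nearest protein-coding gene was used, and 409 of 641 loci (63.8%) next to a marked gene were marked against 252 of 1418 (17.8%) next to an unmarked one. An overlapping locus shared a median of 100% of its span with protein-coding genes, so its value and that of the partner rested largely on the same reads. Even so, the ratio of the locus fell within 2-fold of that of the partner in 69 of 108 loci with a marked partner (63.9%), with a median difference, locus minus partner, of -0.35 on the log2 scale. Where the partner was not marked, 817 of 1122 loci (72.8%) fell within 2-fold, and the median difference was 0.29.

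**Figure D2:**
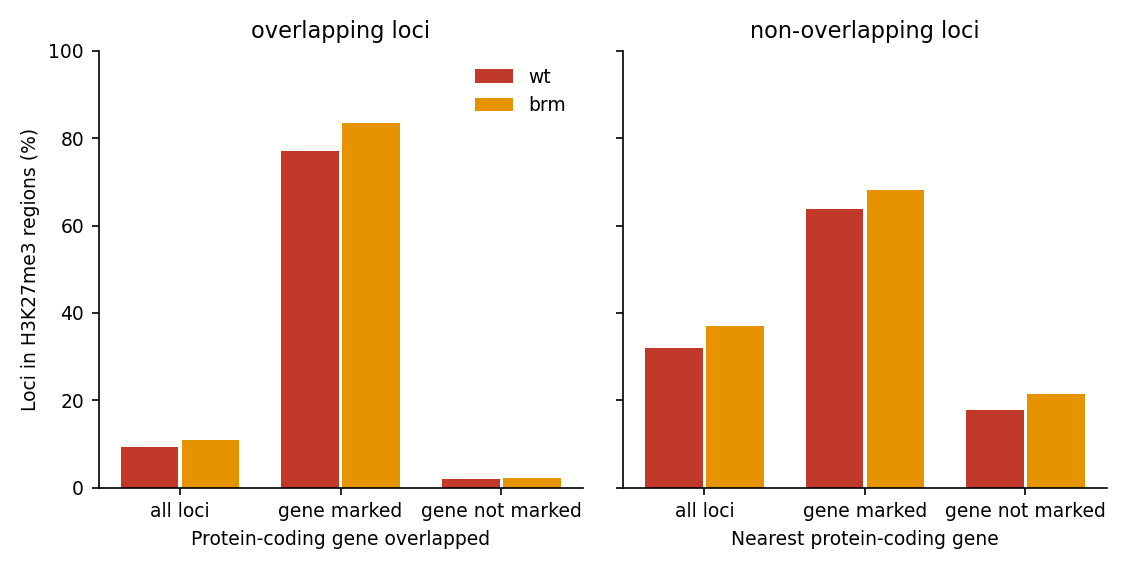
Share of overlapping (left) and non-overlapping (right) lncRNA loci in H3K27me3 regions (y axis, %) in wt (red) and brm (orange), for all loci and by whether the protein-coding gene they overlap or lie nearest to was marked in the same genotype. In wt, 77% of overlapping loci with a marked partner were marked against 1.95% of those with an unmarked one, and for non-overlapping loci the shares were 63.8% and 17.8%.

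By distance, the share of marked loci was lowest next to protein-coding genes, and a part of the marked loci lay in regions without a protein-coding gene. Less than 500 bp from a protein-coding gene, 27.7% of 708 non-overlapping loci were marked in wt, from 500 to below 1000 bp 36.1% of 526, from 1000 to below 2000 bp 34.6% of 434, and at 2000 bp or more 32% of 391. The common regions that held marked non-overlapping loci in wt had a median length of 5200 bp. Of the 661 loci, 263 lay in regions with 2 or more protein-coding genes, 223 in regions with 1, and 175 in regions with none. The 175 loci in regions without a protein-coding gene had their highest ratios near the locus: summed over the 200 bp after the locus centre, H3K27me3 was 4.36-fold and 4.23-fold over input in the wt replicates and 3.67-fold and 3.73-fold in brm. From 2000 to 2200 bp past the centre the ratios were 1.36 and 1.22 in wt and 1.6 and 1.47 in brm. These loci were chosen by the wt reads, so the height in wt is a description.

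**Figure D3:**
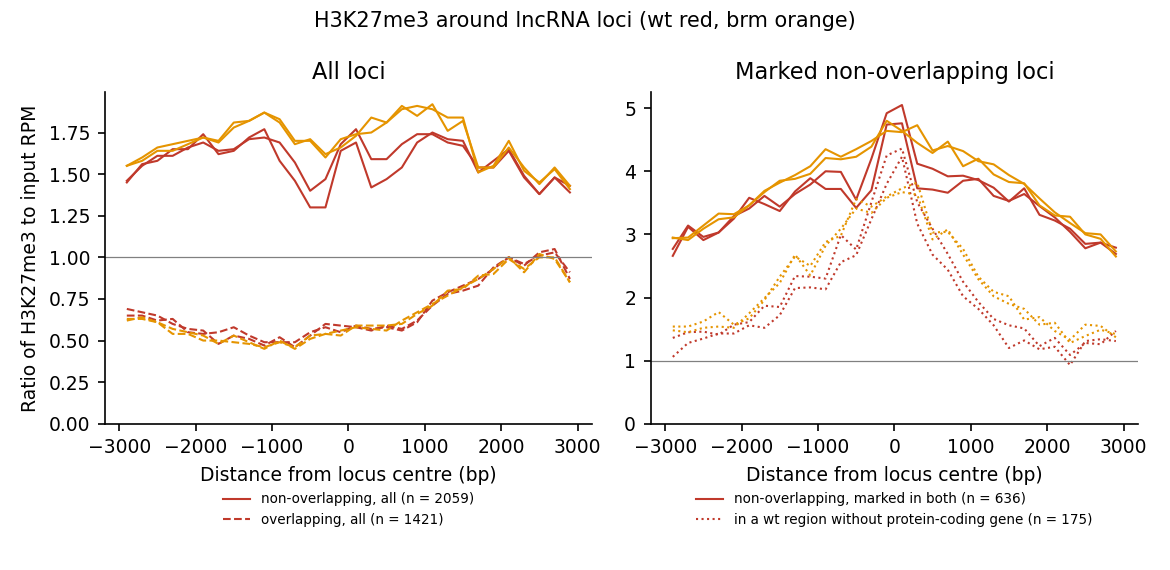
Ratio of summed H3K27me3 RPM to summed input RPM in 200 bp bins (y axis) against distance from the locus centre (x axis, bp, oriented 5′ to 3′), 1 line per library, wt red and brm orange. Left, all non-overlapping (solid) and all overlapping (dashed) loci, with ratios of 1.77 and 0.59 in wt replicate 1 just past the centre. Right, non-overlapping loci marked in both genotypes (solid) and those in a wt region without a protein-coding gene (dotted), which are chosen by the signal. They are highest within 400 bp of the centre, in brm replicate 2 at 200 to 400 bp past it, with ratios of 4.73 and 3.82.

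Among the non-overlapping loci, the 5 highest ratios to input in wt, 3.81 to 4.49 on the log2 scale, included a locus in a region with STM and a locus in a region with MIR160a. AT1G08517 (chr1:23068047-23068354) had 56.8 and 49.8 RPM in wt and 31.7 and 41.9 RPM in brm, against 1.89 and 2.99 RPM in the wt and brm inputs, and lay in a 13200 bp wt region whose only protein-coding gene was STM, a homeobox gene of the shoot meristem. AT2G09010 (chr2:16339187-16339531) had 30.7 and 32.0 RPM in wt and 25.1 and 30.6 RPM in brm, in a region that also held MIR160a, whose microRNA targets auxin response factor genes. Neither passed the test, at a log2 fold change of -0.54 and an adjusted p of 0.588 for AT1G08517, and of -0.17 and 0.942 for AT2G09010. Because these loci were chosen for high wt values, a lower value in brm is favoured by the choice and is given as a description, here and for the overlapping loci chosen the same way. The 3 other loci of this group, AT3G04095, AT5G08485 and AT1G05397, had log2 fold changes of -0.62, -0.43 and -0.32 and adjusted p-values of 0.574 to 0.787. With the input as an offset all 5 were called lower, at log2 fold changes of -1.73 to -1.20 and adjusted p-values of 0.00118 to 0.00743. That fit takes the 11 to 29 wt input reads of each locus as exact. A choice by ratio to input also favours low wt input counts, and the brm input held 17 to 55 reads at these loci. The offset calls thus rest on values that chose the loci and are a description.

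The 5 highest ratios among overlapping loci belonged to antisense loci, but 1347 of all 1421 overlapping loci are antisense. The median log2 ratio in wt was -2.26 over antisense and -0.63 over same-strand loci. AT5G01675 (chr5:3173371-3179600, + strand) covers the whole of FLC, a MADS-box repressor of flowering, and is annotated as its natural antisense transcript. It had 638 and 544 RPM in wt and 457 and 465 RPM in brm, with 53.8 and 46.2 RPM in the inputs, and the genotypes did not overlap. Its log2 fold change was -0.36 ± 0.13 (SE), with an adjusted p of 0.504 in the fit over genes, and -0.138 with the input offset. Among the 128 overlapping loci marked in both genotypes, both brm libraries lay below both wt libraries in 18 and above them in 19. For the 5782 protein-coding genes marked in both genotypes, these counts were 1572 and 842. AT3G08495, which overlaps AT3G55513 and shares its region with MIR172d, the gene of a microRNA that targets AP2-like floral repressors, had 69.9 and 107 RPM in wt and 63.7 and 78.6 RPM in brm. There the groups overlapped, as they did for AT3G12502, antisense to the basic chitinase gene HCHIB, for AT4G05975 and for AT5G49138, whose log2 fold changes were -0.33, 0.08 and 0.01.

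The second comparison asked which lncRNA loci differed between brm and wt. More loci were marked in brm than in wt: 764 against 661 non-overlapping and 156 against 132 overlapping loci. The same was seen over all features, with 6378 against 6007 protein-coding genes and 8071 against 7534 genes of every biotype. Of these, 128 and 28 loci were marked in brm only, and 25 and 4 in wt only. Among the 128 loci, which the brm reads had chosen, both brm libraries stood above both wt libraries in 51 and below them in 4. For the 596 protein-coding genes marked in brm only, these counts were 282 and 44. The islands of each library alone marked 723 and 721 non-overlapping loci in wt and 822 and 836 in brm, and 145 and 148 overlapping loci in wt and 161 and 173 in brm, so the genotypes did not overlap. Nor did they for protein-coding genes, of which 6371 and 6474 were marked in wt and 6699 and 6731 in brm. The brm libraries also held more distinct reads. With the number of distinct reads matched, at 2115598 in each H3K27me3 library and 4369915 in each input, 668 non-overlapping loci were marked in wt and 716 in brm, and 133 and 144 overlapping loci. This setting was chosen after seeing the data. Protein-coding genes then stood at 22% and 22.3%.

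At the level of single loci, almost none passed the test. Reads were compared with edgeR's quasi-likelihood test with Benjamini-Hochberg adjustment over 30906 genes of every biotype, and 1859 lncRNA loci passed the filter on low counts, 1238 of them non-overlapping and 621 overlapping. At an FDR of 0.05 no lncRNA locus was higher in brm and 1 was lower, against 0.0777% of all tested genes higher and 0.0971% lower. At an unadjusted p under 0.05, 78 lncRNA loci were higher and 61 lower, that is 4.2% and 3.28% of those tested, beside 3.21% and 4.53% of all genes. Of 1134 lncRNA loci with an adjusted p from DESeq2, 3 were called higher (AT1G07367, AT5G03095 and AT5G07365) and 1 lower (AT5G05875). The share of all genes called by DESeq2 was not taken, so these counts do not set lncRNA loci apart from other genes. With 1 read kept per position and strand, edgeR called AT1G07367 and AT5G02075 higher and AT3G20978 lower, that is 2 and 1 loci, beside 0.557% and 0.511% of the 19751 genes then tested. The median log2 fold change was 0.05 over non-overlapping and 0.04 over overlapping loci. The precision per locus was low: the median standard error of the log2 fold change was 0.48 over the 786 tested non-overlapping loci marked in either genotype, with a median of 92.4 reads per library, against 0.21 and 513 reads for marked protein-coding genes.

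**Figure D4:**
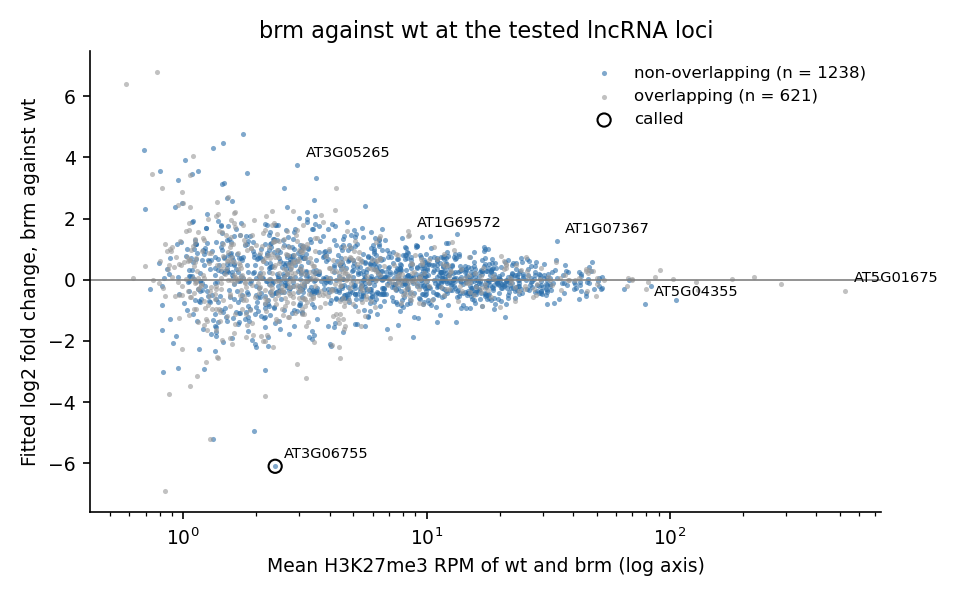
Fitted log2 fold change of brm against wt (y axis) against the mean H3K27me3 level of both genotypes (x axis, RPM, log axis) for the 1238 non-overlapping (blue) and 621 overlapping (grey) lncRNA loci that passed the filter. A ring marks AT3G06755, the only called locus, at a log2 fold change of -6.10, and the spread narrows towards higher levels.

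The locus called lower was AT3G06755 (chr3:15971855-15972088), which overlaps the miscellaneous RNA gene AT3G00720 and lies 585 bp from NAC060, a NAC transcription factor gene. It had 44 and 39 reads in wt and 1 and 0 reads in brm, against 11 and 24 reads in the wt and brm inputs. Its log2 fold change was -6.10 ± 1.24 (SE), with an adjusted p of 0.0481. The wt reads fell at only 8 and 7 distinct positions, no H3K27me3 region covered the locus in either genotype, and with 500 bp of flank on each side the log2 fold change was -1.11 and the adjusted p 0.637. All 198 stretches of 37 bases in it occurred once in the nuclear genome.

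The loci with the largest fitted increase, among those marked in either genotype whose libraries did not overlap, were AT3G05265, AT1G06617, AT3G08155, AT5G08455, AT5G03095 and AT3G09095. All 6 were marked in brm and had no marked base in wt, so the brm reads had selected them and their direction is a description. They had log2 fold changes of 2.29 to 3.74 and adjusted p-values of 0.171 to 0.684. AT3G05265 (chr3:10187733-10187965) had 4 and 3 reads in wt and 69 and 32 reads in brm, with 11 and 7 reads in the inputs. Its reads in brm lay at 13 and 11 distinct positions, its log2 fold change was 3.74 ± 0.93 (SE) and its adjusted p 0.171. The log2 fold change was 2.13 without the shift of reads and 0.664 with 500 bp flanks, and the locus was called without the low-count filter (adjusted p 0.0324), with the replicate block (0.0413), without wt replicate 1 (0.0331) and with the input offset (0.0173). AT5G03095 (chr5:6669108-6669419) had 14 and 17 reads in wt and 83 and 86 in brm, with a log2 fold change of 2.42 ± 0.66 (SE) and an adjusted p of 0.25. That log2 fold change was 1.35 with 1 read per position and strand, 1.59 without the shift and 1.17 with flanks, and the locus was called with DESeq2 (adjusted p 0.0453) and with the input offset (0.02). AT1G06617, AT3G08155 and AT5G08455 had 0 reads in wt replicate 1, and their log2 fold changes ran from 1.598 to 2.555 without that library and from 7.167 to 7.599 without wt replicate 2. AT5G08455 and AT3G09095 overlap the ends of HAP8 and BZIP61, a bZIP transcription factor gene, whose own log2 fold changes were 0.13 and 0.43.

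The largest fitted decreases under the same rule were those of AT4G04905, AT4G05705, AT1G07597, AT3G04375 and AT4G06815. Of these, AT4G04905, AT1G07597 and AT3G04375 were marked in wt with no marked base in brm, so the wt reads had selected them, AT4G05705 was marked in brm only and AT4G06815 in both. They had log2 fold changes of -2.34 to -1.87 and adjusted p-values of 0.347 to 0.679. AT3G04375 (chr3:8184871-8185112) had 4.55 and 5.75 RPM in wt and 1.15 and 1.67 RPM in brm, and its nearest protein-coding gene was IAA2, an Aux/IAA repressor gene of auxin response, 2776 bp away, which passed the test at a log2 fold change of -1.17 and an adjusted p of 0.0287. AT4G06815 (chr4:10210703-10210913), 664 bp from the signalling peptide gene CLE2, had 76 and 169 reads in wt and 28 and 39 in brm. These reads lay at 16 and 14 distinct positions in wt and at 14 and 17 in brm, so the genotypes differed in repeated reads and overlapped in positions. Its log2 fold change was -0.348 with 1 read per position and strand, -0.464 without the shift and -0.440 with flanks, and it was called without wt replicate 1 (-2.31, adjusted p 0.00745) and with the input offset (-3.35, adjusted p 0.00324). In AT4G05705 only 65.4% of the 37-base stretches occurred once in the genome, and reads from the rest of the locus were not in the files.

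Other loci were called under several alternatives without passing the main test, among them AT3G05265, described above, and 3 that were named after their values were seen. AT1G07367 (chr1:17388989-17389500) had 19.9 and 20.7 RPM in wt and 52.5 and 44.2 RPM in brm, a log2 fold change of 1.26 ± 0.26 (SE) and an adjusted p of 0.0588. With 1 read per position and strand the log2 fold change was 1.13 and the adjusted p 0.00485. AT5G04355 (chr5:9518347-9519363) had 87.2 and 114 RPM in wt and 58.7 and 57.0 RPM in brm, a log2 fold change of -0.80 ± 0.19 (SE) and an adjusted p of 0.154. AT5G07365 had 0.934 and 0.331 RPM in wt and 7.09 and 5.71 RPM in brm, a log2 fold change of 3.32 ± 0.86 (SE) and an adjusted p of 0.209, and was called without the low-count filter, with the replicate block and with DESeq2. Since these loci were picked for their calls, the separation of their libraries is a description.

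Loci with a known role were few in this biotype. Of 15 long non-coding RNA genes listed for their known functions, such as the TAS, IPS1 and APOLO genes, 1 is annotated as lncRNA and 14 carry other biotypes. The 1 member was AT1G69572 (chr1:26161551-26162791), antisense to AT1G69570 and wholly inside it. It had 4.09 and 4.97 RPM in wt and 13.6 and 11.3 RPM in brm, with 11 and 15.9 RPM in the inputs, so the genotypes were apart but both lay below the brm input. The log2 fold change was 1.45 ± 0.52 (SE) with an adjusted p of 0.504, and that of AT1G69570 was 1.21 with an adjusted p of 0.505. Neither was covered by an H3K27me3 region in both replicates. Among the 1261 overlapping loci marked in neither genotype, both brm libraries lay above both wt libraries in 229 and below them in 153. For the 20841 protein-coding genes marked in neither genotype, these counts were 3442 and 3839.

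Of 20 flowering, meristem, auxin and cold-response genes listed as Polycomb-regulated or developmental, FLC, AT1G69570, CBF2 and DREB1A had a lncRNA locus within 1 kb, and the 16 others had none. AT4G07385 overlaps DREB1A, which encodes a cold-response transcription factor, by 29 bp and had 9.58 and 7.84 RPM in wt and 12.8 and 21.6 RPM in brm, with a log2 fold change of 0.98 ± 0.43 (SE) and an adjusted p of 0.602. AT4G07395, on the other side of DREB1A, was marked in both genotypes at 30.0 and 26.4 RPM in wt and 27.4 and 22.7 RPM in brm, and there the groups overlapped. DREB1A itself had a log2 fold change of -0.34 with an adjusted p of 0.938.

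Of the 3480 lncRNA loci, 7 non-overlapping loci and 1 overlapping locus had as nearest or overlapped gene a protein-coding gene that was itself called, beside 23 protein-coding genes called higher and 28 lower of 25327 tested. In the 5 and 1 of these that passed the filter the fitted direction was that of the gene. These loci were not independent. AT2G06905 and AT2G06935 overlap each other and have the same nearest gene, AT3G01835 and AT3G01845 also share theirs, and AT5G09325 shares all its reads with its gene. AT2G06905 and AT2G06935 lay beside AT2G17300, which was higher in brm with a log2 fold change of 2.20, and had log2 fold changes of 1.67 and 1.04 and adjusted p-values of 0.642 and 0.822. AT5G09325 lies inside AT5G65225, which was lower in brm with a log2 fold change of -1.26 and an adjusted p of 0.0077, and had itself 5.26 and 2.32 RPM in wt and 1.67 and 3.33 RPM in brm, which overlap.

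Because single loci were short, the same test was run, after the counts per locus were seen, on 6778 regions formed by joining the common regions of wt and brm. There 176 regions held at least 1 lncRNA locus and no protein-coding gene, 602 held both, and 6000 held no lncRNA locus. Of the 176, 3 were called higher in brm and 1 lower, and of the 602, 15 higher and 11 lower, beside 1.86% of all regions called higher and 1.12% lower. Of the 176 regions, 138 were found in both genotypes, 29 in brm only and 9 in wt only. Over all 6778 regions these counts were 5568, 794 and 416, so regions found in brm only were also the more frequent there. A region found in 1 genotype only was chosen by the reads that were then compared, so its difference is a description. Fewer regions of either set were called when brm replicate 1 or brm replicate 2 was left out. Without wt replicate 1 more of the 176 regions were called. The share of all regions called in these fits was not taken, so these changes do not set regions with lncRNA loci apart from other regions.

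The region of AT2G08245 and AT2G08250, 2 overlapping loci on opposite strands (chr2:12025601-12027800), lay 231 bp from the protein-coding gene AT2G28200. It had 20.4 and 17.6 RPM in wt and 52.1 and 53.5 RPM in brm, with 18.4 and 10.7 RPM in the inputs. The wt libraries were near their input and the brm libraries stood well above both. The log2 fold change was 1.47 ± 0.26 (SE), with an adjusted p of 0.00313. Within the loci the genotypes overlapped, at 15.4 and 6.63 RPM in wt and 14.1 and 13.8 RPM in brm for AT2G08245, and at 8.76 and 4.75 RPM against 8.96 and 8.56 RPM for AT2G08250.

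The region of AT2G05425 (chr2:3528201-3531600), 701 bp from MCM5, a gene of DNA replication, had 57.9 and 53.9 RPM in wt and 99.3 and 113 RPM in brm, and 24.1 and 19.0 RPM in the inputs. The log2 fold change was 0.93 ± 0.18 (SE), with an adjusted p of 0.00691. The locus itself had 7.01 and 4.75 RPM in wt and 11.7 and 9.99 RPM in brm, and 81.2% of its 37-base stretches occurred once in the genome.

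The region of AT2G09450 and the end of AT2G09445 (chr2:18005201-18006600) was found in brm only, 1006 bp from INT1, which encodes an inositol transporter. It had 9.93 and 13.4 RPM in wt and 30.6 and 34.7 RPM in brm, and 16.9 and 9.51 RPM in the inputs. AT2G09450 itself had 3.62 and 6.85 RPM in wt and 10.7 and 17.1 RPM in brm, with a log2 fold change of 1.41 ± 0.52 (SE) and an adjusted p of 0.506 in the fit over genes.

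The only region of this kind called lower held AT5G04355 (chr5:9516401-9519400), together with 2 loci of other biotypes, among them the pseudogene AT5G27037, 836 bp from TPR3, a TOPLESS-related corepressor gene. It had 162 and 189 RPM in wt and 118 and 124 RPM in brm, and 26.3 and 23.1 RPM in the inputs. The log2 fold change was -0.54 ± 0.14 (SE), with an adjusted p of 0.0355, which rose to 0.0877 without wt replicate 2, to 0.442 without brm replicate 1 and to 0.246 without brm replicate 2.

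Among the 602 regions with lncRNA loci and protein-coding genes, the FLC region with AT5G01675 (chr5:3172401-3181400) was called lower, at 719 and 632 RPM in wt and 510 and 525 RPM in brm. Its log2 fold change was -0.38 ± 0.08 (SE), with an adjusted p of 0.0127, and the adjusted p was 0.301 without brm replicate 1 and 0.185 without brm replicate 2. Regions with AT5G08465, AT5G08475 and GAMT2, a gibberellin methyltransferase gene, and with 4 lncRNA loci and GNC, a GATA factor gene, were lower by log2 fold changes of -0.59 and -0.50. The region of AT5G09325, AT5G65225 and MYB53, found in wt only, had 129 and 111 RPM in wt and 47.2 and 42.3 RPM in brm, near its inputs of 42.6 and 47.6 RPM. In the other direction the region of AT4G09025 (chr4:16578401-16585000) had 88.4 and 51.9 RPM in wt and 166 and 169 RPM in brm, a log2 fold change of 1.26 ± 0.19 (SE) and an adjusted p of 0.000808. Regions of AT2G06835, AT2G06905 and AT2G06935 with AT2G17300, of AT2G07935 with the methylesterase gene MES1, and of AT1G07367 and AT1G07373 with 5 protein-coding genes were higher by log2 fold changes of 0.82, 0.88 and 0.50.

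**Figure D5:**
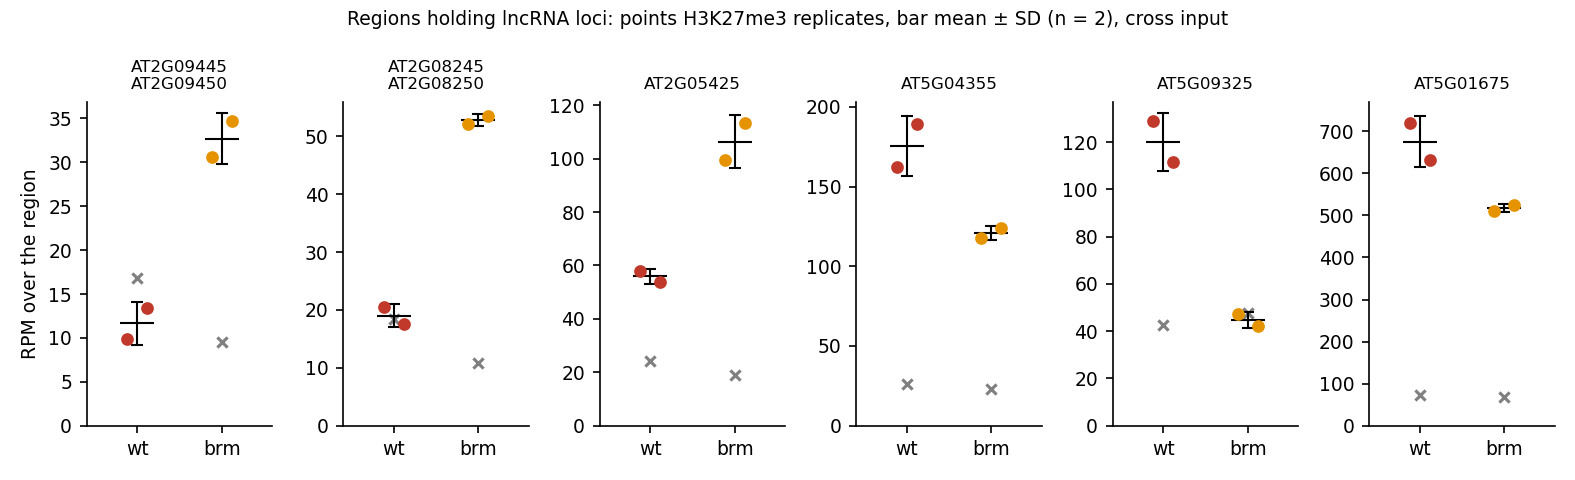
H3K27me3 level (y axis, RPM over the region) in wt (red) and brm (orange) for the 4 called regions that hold lncRNA loci and no protein-coding gene, and for the regions of AT5G09325 and of AT5G01675, the FLC antisense locus. Points are replicates, bars the mean ± SD (n = 2) and crosses the single input. In each panel the replicates of the genotypes lie apart, from 20.4 and 17.6 against 52.1 and 53.5 RPM at AT2G08245 to 719 and 632 against 510 and 525 RPM at AT5G01675. All regions shown were chosen because the test on these libraries called them, so the separation is a description.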

How the data were processed

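The authors sequenced H3K27me3 ChIP and input libraries of wt and brm on an Illumina Genome Analyser IIx and mapped them to TAIR10, per the submitters' processing notes with Bowtie 0.12.7, and called regions with SICER 1.1. Per the paper's methods only perfect, unique matches were kept. The deposited files list 1 read of 37 bp per line, so values are read counts as deposited by the authors, not normalized, and the deposited score column was 0 throughout and was not used. Groups and replicate numbers came from the labels.

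Reads were moved 75 bp towards the fragment centre and counted over TAIR10.1 gene spans, whose 5 nuclear chromosomes have the lengths of TAIR10. RPM is reads per 1000000 nuclear reads. Regions were rebuilt after SICER: distinct reads, 200 bp windows, 600 bp gaps, a Poisson test against the input, FDR 0.01, with bases found in both replicates kept. No island score threshold was applied. This gave 6651 regions in wt and 6482 in brm.

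Genotypes were compared with edgeR 4.0.16 (R 4.3.3; quasi-likelihood F test, total nuclear reads as library size, filterByExpr, Benjamini-Hochberg adjustment over all genes or all regions tested, FDR 0.05), which stands in for ChIPDiff. All adjusted p-values are from this test unless DESeq2 1.42.0 is named. The standard error (SE) was not taken from the model. It is the absolute log2 fold change divided by the square root of the F statistic, and is approximate, above all at low counts. Leave-one-out fits assume that the lone library varies like the others. The scripts were tested on simulated data. Ratios, shares of marked loci and motifs carry no test, and ratios were taken over loci with at least 10 reads in each input.

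The members, the gene lists and the rules were chosen with earlier results of these data known. Named loci were the called ones, the largest fitted changes among marked loci with groups that did not overlap, the 5 highest ratios in wt per class, listed lncRNAs, and loci within 1 kb of listed genes. Read counts set the precision, and duplicate reads are not independent fragments.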

Additional observations from a re-analysis of the deposited data

How the results depend on the processing

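The count of lncRNA loci called higher in brm, 0 in the main fit, was 0 with TMM scaling, without the shift of reads and over bases outside protein-coding genes, 4 without a low-count filter, 2 with 1 read per position and strand, 6 with 500 bp flanks, 3 with DESeq2, 28 with the input as an offset, which takes the few input reads as exact, and 0 to 19 when 1 library was left out. The count called lower, 1 in the main fit, was 0 with TMM scaling and 0 without the shift, 8 without the filter, 3 with flanks, 39 with the input offset, and 0 to 35 with 1 library left out. The highest counts came without wt replicate 1 (19 and 35), followed by wt replicate 2 (10 and 20). For regions with lncRNA loci and no protein-coding gene, leaving out 1 library gave 0 to 12 higher and 0 to 2 lower, and 1 read per position and strand gave 17 and 6. For those with both kinds of genes, the ranges were 2 to 23 higher and 1 to 24 lower, and 1 read per position and strand gave 42 and 31. AT3G06755 lost its call with TMM scaling, without the shift, with flanks and without either brm library, and DESeq2 gave it no adjusted p.

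The labels do not say whether samples with the same replicate number were processed together. The deviations of replicates 1 and 2 in wt and brm correlated at r = 0.0681 over 10713 genes. With so few libraries this value cannot settle whether the samples were paired. With the replicate block, 4 lncRNA loci were called higher and 3 lower. The counts were 8 and 2 for regions without protein-coding gene, and 25 and 16 for regions with both kinds of genes. Calls also rose over all genes with 1 read per position and strand, from 0.0777% to 0.557% higher and from 0.0971% to 0.511% lower. For the other settings of this section no share over all genes or all regions was taken. Their counts therefore do not set lncRNA loci apart from other features.

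The median log2 ratios to input moved with the pseudocount and the input minimum, in the order non-overlapping wt, non-overlapping brm, overlapping wt and overlapping brm. They were -0.90, -0.72, -3.05 and -2.99 with 0.1 RPM, and -0.43, -0.34, -1.24 and -1.25 with 2 RPM. Without an input minimum they were -0.67, -0.47, -2.13 and -2.11. At 50 input reads they were -2.89, -2.92, -2.72 and -2.84, where only 31 non-overlapping and 307 overlapping loci were left and the order of the classes was lost. With 1 read per position and strand they were -0.56 (non-overlapping, brm), -2.21 and -2.25 (overlapping). Single replicates gave -0.63 to -0.60, -0.53 to -0.51, -2.26 to -2.25 and -2.29 to -2.28. Counts of marked loci stayed within 1.5 times the main count under every alternative tried, the thinning included. Signs turned for 5 named loci, none of them called. With 1 library left out, the log2 fold change ran from -0.586 to 0.024 for AT3G08495, from -0.765 to 0.288 for AT3G12502, from -0.181 to 0.294 for AT4G05975 and from -0.241 to 0.324 for AT5G49138. Over bases outside protein-coding genes AT3G08495 was at 0.134, and with 1 read per position and strand AT5G49138 was at -0.030. With the input offset AT4G05975 was at -0.783, AT5G49138 at -0.159 and AT4G07395 at 0.801.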
